A study of Macaca mulatta with 2 samples.

Results

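Naive T cells carry a set of transcription factors that hold them in a resting, long-lived state. Here 6 genes of that set were followed in blood T cells sorted as CD4+CD8+ double-positive (DP). The members were chosen by name, with earlier results of these data known. They are the rows of *LEF1*, *TCF7*, *BACH2*, *SATB1*, *FOXP1* and *SOX4* among 35432 genes, of which 14459 remained after the gene filter, all 6 members among them. LEF1 and TCF-1, the product of *TCF7*, are related DNA-binding proteins with an HMG box that can recruit beta-catenin or the TLE corepressors. BACH2 is a repressor that competes with AP-1 factors, SATB1 organizes chromatin in thymocytes and T cells, FOXP1 is a forkhead factor known for keeping naive T cells quiescent, and SOX4 is an HMG-box factor known from thymocytes and recent thymic emigrants. In blood most of these genes are known to be high in naive cells and low in cytotoxic effector cells.

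The cells came from 1 healthy, untreated male rhesus monkey aged 6 years. CD4+ cells were taken from blood with releasable magnetic beads, the CD8+ cells among them were taken with a further set of beads, and the sorted cells carried CD4 and CD8 feature barcodes (FB), which are DNA tags on antibodies. A 5′ RNA library and a tag library were read from the same droplets, and all 7923 deposited barcodes are shared by both. With 1 animal there are no replicates, so no test was made, and every interval below is a 95% interval for counting error only.

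Of 7601 cells that passed the filters, 7311 had at least 1 UMI (a unique molecular identifier, which counts a captured RNA molecule once) of *CD3E*, which codes for a chain of the T cell receptor complex. These CD3E+ cells had a median of 3656 UMIs, and 93.9% of them had a CD4 tag above the level set by 86 cells with B cell genes and no CD3 gene (B gene cells). A CD8 tag above the level set in the same way was found in 51.7%. Unless a tag is named, groups of CD3E+ cells were taken whatever their tags. Levels are given as UMIs of a gene per 1000000 UMIs of the group (CPM). Shares of cells were compared after each cell was thinned to 2000 UMIs, which left 6935 CD3E+ cells and dropped 376.

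*LEF1* and *TCF7* are paralogs, as are *FOXP1* and *FOXP3*, so the most alike stretch of 60 coding bases of each pair is shown to make clear how far reads of one could pass for the other. Bases that differ between the paralogs are in capitals, and the sequences are from RefSeq on the Mmul_10 build. The *LEF1* stretch lies in exons 8 and 9 at chr5:106435859-106443324 on the minus strand, with the intron between them, and the *TCF7* stretch in exons 8 and 9 at chr6:131579657-131579825 on the plus strand, in both genes within the HMG box.
LEF1: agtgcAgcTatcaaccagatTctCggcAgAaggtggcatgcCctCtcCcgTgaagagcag
TCF7: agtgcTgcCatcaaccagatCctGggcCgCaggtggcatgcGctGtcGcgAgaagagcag
The *FOXP1* stretch lies in exon 15 at chr2:127056048-127056107 on the minus strand and that of *FOXP3* in exon 11 at chrX:49239479-49239538 on the minus strand, both within the forkhead domain.
FOXP1: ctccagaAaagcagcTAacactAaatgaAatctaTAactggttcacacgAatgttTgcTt
FOXP3: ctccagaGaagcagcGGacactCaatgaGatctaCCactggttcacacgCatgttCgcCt
In each pair 50 of the 60 bases were identical, and no stretch of 50 bases was shared between any of the 7 *LEF1* and 11 *TCF7* transcripts or between *FOXP1* and the 10 *FOXP3* transcripts. No read of 50 bases within these transcript models would therefore match both genes of a pair.

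One promoter is shown because TCF-1 and LEF1 bind the letters CTTTGA. In the 250 bases before the gene start, that motif (searched on both strands, as CTTTGA or TCAAAG) was present in 1 of the 6 members, *TCF7*, against 10.7% of 20760 protein-coding genes. The window is chr6:131551308-131551557 on the plus strand, and the capitals mark the motif, which has 1 base between it and the annotated start of the gene.
TCF7 promoter: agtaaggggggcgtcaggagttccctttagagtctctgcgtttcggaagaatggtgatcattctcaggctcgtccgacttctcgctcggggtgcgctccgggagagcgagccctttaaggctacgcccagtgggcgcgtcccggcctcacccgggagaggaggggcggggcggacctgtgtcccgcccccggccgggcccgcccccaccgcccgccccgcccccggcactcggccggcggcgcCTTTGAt
The match is a description of letters and was not tied to any binding in these cells. The member windows ranged from 32% G and C in *LEF1* to 81.2% in *BACH2* and *SATB1*, around a median of 57.2% for all genes, and the *FOXP1* gene model is marked as partial in the annotation.

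Across all CD3E+ cells, *LEF1* stood at 107 CPM (103 to 111), from 3215 UMIs, and at least 1 UMI was found in 25.1% of the cells. *TCF7* stood at 83.6 CPM (80.3 to 86.9) with a UMI in 24.7% of cells, *SATB1* at 98.6 CPM (95.1 to 102) in 27.4%, and *FOXP1* at 81.0 CPM (77.8 to 84.3) in 26.1%. *BACH2* and *SOX4* were sparse, with 152 UMIs in 1.98% and 251 UMIs in 2.19% of cells, so their values carry wider intervals throughout. *SOX4* was sparse in another way than *BACH2*. Only 41.0% of its UMIs came from cells with a single *SOX4* UMI and 21 cells had 3 or more, whereas 90.8% of the *BACH2* UMIs came from cells with a single one and no cell had 3.

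B gene cells served as a rough gauge of RNA that had leaked between droplets. They were required to have no UMI of a CD3 gene, which leaves out droplets with leaked CD3 RNA. Limits taken from them may therefore be too low. They also had *GZMB* at 663 CPM, from 7 cells. *LEF1* and *TCF7* had 0 UMIs in the 86 B gene cells, which allows a share of cells with a UMI of up to 3.49%. *SATB1* was at 25.2 CPM (12.1 to 46.3) there. *FOXP1* at 199 CPM (158 to 248), *SOX4* at 27.7 CPM (13.8 to 49.6) and *BACH2* at 15.1 CPM (5.55 to 32.9) were higher in B gene cells than in CD3E+ cells. The B gene cells therefore give no background for the 3 genes. UMIs of B cell genes are given below for several of the contrasts.

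CCR7 is the receptor that leads naive and central memory T cells into lymph nodes, and all 6 factors were higher in cells that had its RNA. *LEF1* rose from 57.7 CPM (54.3 to 61.1) in the 5148 cells with 0 *CCR7* UMIs to 193 CPM (181 to 206) in the 1028 cells with 1 and 199 CPM (188 to 211) in the 1135 cells with 2 or more. *TCF7* went from 58.7 to 125 and 132 CPM over the same groups, and *SATB1* from 77.6 to 141 and 134 CPM. The step for these 3 genes lay between 0 and 1 *CCR7* UMI, and their levels at 1 and at 2 or more had overlapping intervals.

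*SOX4* was the steepest of the 6 among all CD3E+ cells, with a rise that differed by CD8 tag, as given below. It stood at 2.67 CPM (2.0 to 3.50), 13 CPM (9.97 to 16.7) and 23.3 CPM (19.5 to 27.5) in cells with 0, 1 and 2 or more *CCR7* UMIs, and the log2 ratio of 2 or more to 1 was 0.84 (0.40 to 1.30). The same ratio was 0.20 (0.02 to 0.37) for *FOXP1*, 0.56 (-0.06 to 1.21) for *BACH2*, 0.09 (-0.07 to 0.24) for *TCF7*, 0.04 (-0.08 to 0.17) for *LEF1* and -0.08 (-0.23 to 0.08) for *SATB1*. *BACH2* rose from 2.88 CPM (2.17 to 3.74) at 0 to 10.5 CPM (8.08 to 13.5) at 2 or more, and *FOXP1* from 66.5 to 114 CPM.

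In the contrast of 2 or more *CCR7* UMIs with 0, the log2 ratio of CPM was 3.12 (2.65 to 3.61) for *SOX4*, 1.87 (1.33 to 2.42) for *BACH2*, 1.79 (1.67 to 1.91) for *LEF1*, 1.17 (1.04 to 1.31) for *TCF7*, 0.79 (0.66 to 0.91) for *SATB1* and 0.77 (0.64 to 0.91) for *FOXP1*. With 10 CPM added to both levels, which damps low genes, 3 of the 6 members passed a log2 ratio of 1, against 0.501% of 9774 genes with at least 50 UMIs in both groups together. Because the members were chosen with earlier results known, this share and those below are a background and no support for the choice. Cells of the higher group also had more RNA, with a median of 4567 UMIs against 3451, and more UMIs of 7 B cell genes, 130 against 45.1 CPM. The part of these differences in the result was not tested, but each ratio stayed within its interval when cells with a B cell gene UMI were left out.

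**Figure D1:**
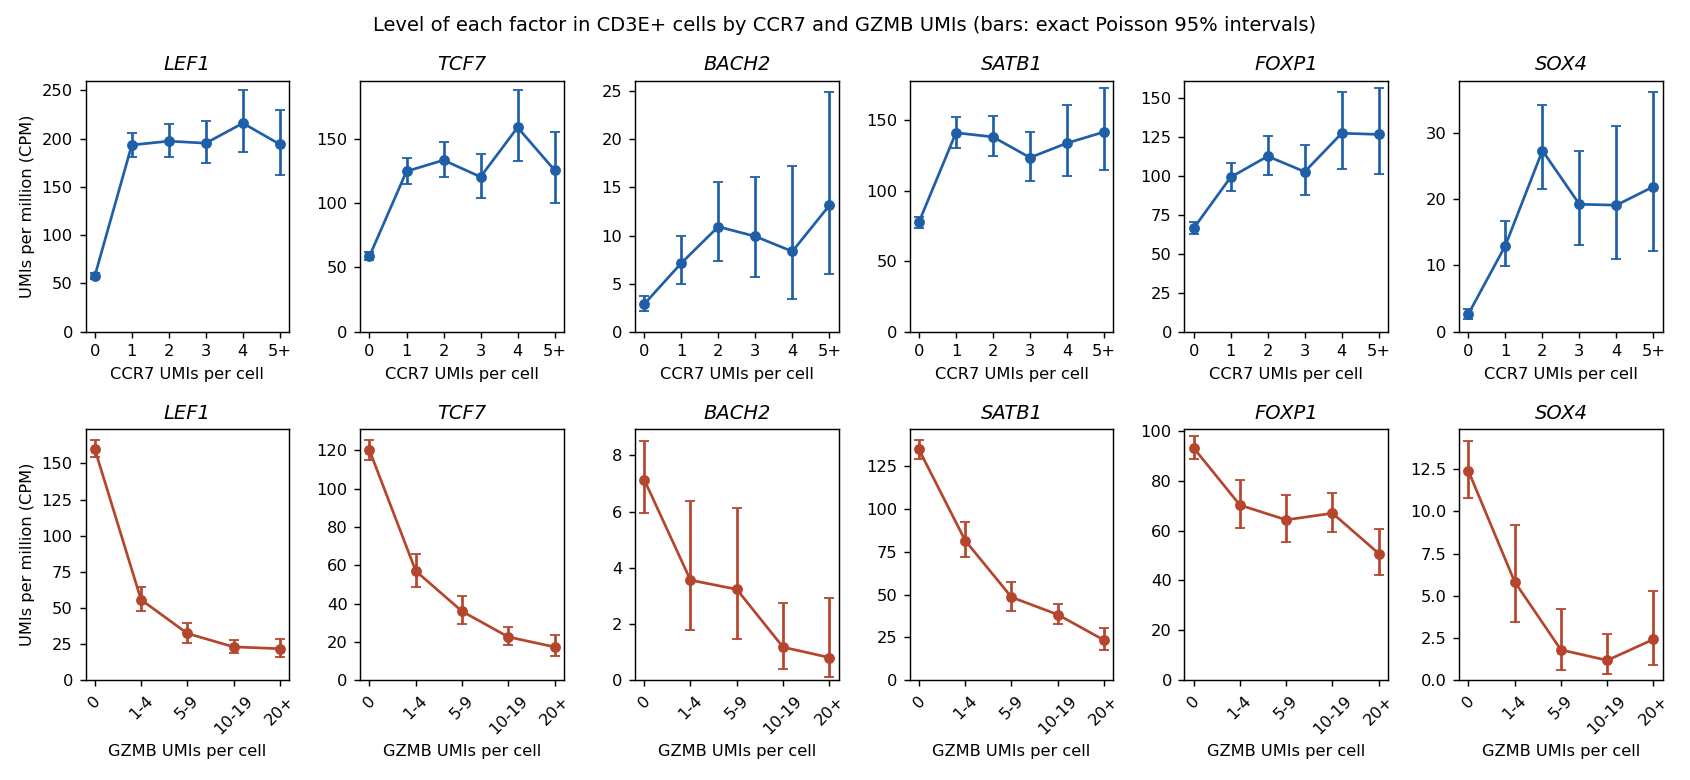
Level of each factor (y axis, CPM, from 0 and on a scale of its own for each gene) in CD3E+ cells by the number of *CCR7* UMIs (upper row) and *GZMB* UMIs (lower row) per cell, with exact Poisson 95% intervals as bars. *LEF1* steps up from 57.7 CPM at 0 to 193 CPM at 1 *CCR7* UMI and stays level beyond, while all 6 genes are highest at 0 *GZMB* UMIs.

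GZMB is the protease granzyme B of cytotoxic cells, and the 6 factors were lower where its RNA was high, *FOXP1* far less than the others. *LEF1* fell from 160 CPM (154 to 166) in the 4038 cells with 0 *GZMB* UMIs to 55.7 CPM (47.7 to 64.7) in the 847 cells with 1 to 4 and 25.4 CPM (22.3 to 28.8) in the 2426 cells with 5 or more. *TCF7* fell from 120 to 57.0 and 25.1 CPM, and *SATB1* from 135 to 81.6 and 37.4 CPM. *FOXP1* stood at 93.2 CPM (88.7 to 97.8), 70.3 CPM (61.2 to 80.3) and 62.0 CPM (57.1 to 67.2), so that the middle and high groups overlapped. *BACH2* stood at 7.14, 3.56 and 1.68 CPM, and *SOX4* at 12.4, 5.83 and 1.68 CPM.

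The log2 ratio of 5 or more *GZMB* UMIs to 0 was -2.88 (-3.71 to -2.15) for *SOX4*, -2.65 (-2.85 to -2.46) for *LEF1*, -2.26 (-2.46 to -2.06) for *TCF7*, -2.09 (-2.94 to -1.33) for *BACH2*, -1.85 (-2.01 to -1.69) for *SATB1* and -0.59 (-0.73 to -0.45) for *FOXP1*. With 10 CPM added, 3 of 6 members were lower by a log2 ratio of 1 or more, against 1.16% of 9865 genes, whose median ratio was 0.12. *KLRF1*, the 1 measured gene of the NK cell list, was at 169 CPM in the cells with 5 or more *GZMB* UMIs and 12 CPM at 0. Leaving out the 489 cells with the highest doublet scores widened the ratio to -4.29 for *LEF1*, -4.64 for *SOX4*, -3.08 for *BACH2*, -3.02 for *TCF7* and -2.34 for *SATB1*, and gave -0.70 for *FOXP1*. The scores are computed from the RNA itself. Of the cells with 2 or more *CCR7* and 5 or more *GZMB* UMIs, 74.7% were left out. The wider ratios are therefore no support for a larger difference.

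*CCR7* and *GZMB* are related to each other, so the *CCR7* contrast was repeated within the cells that had no *GZMB* UMI. There the log2 ratio of 2 or more *CCR7* UMIs (1004 cells) to 0 (2140 cells) was 2.43 (1.90 to 2.99) for *SOX4*, 1.09 (0.46 to 1.71) for *BACH2*, 0.93 (0.81 to 1.06) for *LEF1*, 0.58 (0.42 to 0.75) for *FOXP1* and 0.48 (0.34 to 0.63) for *TCF7*. *SATB1* was at 137 CPM (127 to 148) against 127 CPM (120 to 135), a ratio of 0.11 (-0.03 to 0.25) whose interval includes 0. Without *GZMB*, *SATB1* thus kept little of its *CCR7* ratio, *SOX4* and *FOXP1* kept most of theirs, and *LEF1*, *TCF7* and *BACH2* lay between.

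All 6 factors were lowest in the 2277 cells with 0 *CCR7* and 5 or more *GZMB* UMIs, among the combinations of both genes with over 100 cells. *LEF1* was at 12.5 CPM (10.2 to 15.2) there, and 3.03% of the cells had a UMI of it. The B gene cells, which were deeper with a median of 4137.5 against 3272 UMIs, allow a share of up to 3.49% and a level of up to 7.56 CPM (3 counts), so the share lay under that limit and the level above it. *SOX4* had 3 UMIs among the 2277 cells and *BACH2* 8, whereas *FOXP1* remained at 56.8 CPM (51.8 to 62.1).

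A further 79 cells had 2 or more *CCR7* and 5 or more *GZMB* UMIs, and *LEF1* was at 136 CPM (111 to 167) and *TCF7* at 92.4 CPM (71.3 to 118) in them. These cells had a median of 7877 UMIs, 26.6% had a B cell gene UMI, 91.1% had a high CD8 tag and 74.7% were among the cells with the highest doublet scores. In the 20 cells left without those, *LEF1* stood at 70.2 CPM, from 15 UMIs. The same setting lowered it from 12.5 to 5.34 CPM in the cells with 0 *CCR7* and 5 or more *GZMB* UMIs. The log2 ratio between these groups was 3.44 (3.03 to 3.86) with all cells and 3.72 (2.75 to 4.6) in this setting, with the level lower on both sides. The part of droplets with more than 1 cell among the 79 cells was not tested further.

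The genes around the members were read from lists, which were also chosen with earlier results of these data known. Of 15 measured naive and egress genes, 8 were higher by a log2 ratio of 1 or more at 2 or more *CCR7* UMIs, *CCR7* itself included, and 9 were lower at 5 or more *GZMB* UMIs, with medians of 1.06 and -1.52. Of all genes, 0.501% were higher by *CCR7* and 1.16% lower by *GZMB*. *CD7*, a surface protein of early and naive T cells, was at 513 against 178 CPM by *CCR7*, while *NOSIP* was at 96.9 against 91.9 CPM. Of 12 measured effector factors, 7 were lower by *CCR7*, where 1.47% of all genes were lower, and 7 higher by *GZMB*, where 2.63% were higher. *ZEB2*, a repressor known from terminal effector cells, was at 213 CPM in cells with 5 or more *GZMB* UMIs and 10.4 CPM at 0, and *TBX21*, which codes for the effector factor T-bet, at 61.0 and 6.91 CPM.

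None of 14 measured TCF/LEF cofactors passed a log2 ratio of 1 by *CCR7* and none of 15 by *GZMB*, with medians of 0.09 and -0.03. Of all genes, 0.501% were higher and 1.47% lower by *CCR7*, and 2.63% higher and 1.16% lower by *GZMB*. With shares this low, a short list without such a gene, here or below, says nothing particular about its genes. The corepressor *TLE1* came closest, at 10.5 against 2.93 CPM by *CCR7* and 1.89 against 9.08 CPM by *GZMB*, levels at which the 10 CPM added damp the ratio. Of 6 measured FOXO and FOXP factors, 1 was higher by *CCR7* and 1 lower by *GZMB*, *FOXP3* in both cases. Of 14 AP-1 and BACH genes, *FOSL2* was lower by *CCR7* and higher by *GZMB*, and *JUN* was lower by *GZMB*, at 411 against 912 CPM.

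Of 12 measured cytotoxic genes, 11 were lower by *CCR7* and 11 higher by *GZMB*, *GZMB* itself included, against 1.47% and 2.63% of all genes. Of 14 other early T cell factors, none passed by *CCR7*, and *KLF3* was higher and *MYC*, a driver of cell growth, lower by *GZMB*, at 400 against 179 and 19.5 against 57.1 CPM. *SOX4* was the 1 SOX gene measured. Of 5 thymic immaturity genes, *CD1C*, which B cells also express, was higher by *CCR7* at 22.4 against 5.45 CPM, and none passed by *GZMB*. Of 5 B cell genes, *MS4A1* and *CD79B* were higher by *CCR7* and by CD8 tag, and the 2 red blood cell genes summed to 8.16 against 366 CPM by *CCR7* and 115 against 344 CPM by *GZMB*. In the cells with a CD4 tag above its limit these 2 genes summed to only 40.3 CPM with high and 42.1 CPM with low CD8 tag. Most of their UMIs therefore lay in the 449 CD3E+ cells with a low CD4 tag. No measured gene of the monocyte, plasmacytoid dendritic cell or cycling lists passed in either contrast, and no platelet gene reached 50 UMIs. By CD8 tag no list gene passed but those 2 B cell genes, where 0.161% of all genes were higher and 0.0302% lower.

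FOXP3 marks regulatory T cells, and the cells with its RNA had a pattern of their own. In the 162 cells with a *FOXP3* UMI against the 7149 without, *LEF1* was at 204 CPM (174 to 237) against 104 CPM and *FOXP1* at 164 CPM (137 to 194) against 78.7 CPM, with log2 ratios of 0.97 (0.73 to 1.20) and 1.06 (0.79 to 1.31). *TCF7* went the other way, at 57.1 against 84.3 CPM, a ratio of -0.56 (-1.01 to -0.14). *SOX4* was at 21.1 against 7.98 CPM from 17 UMIs, *BACH2* at 12.4 against 4.84 CPM from 10 UMIs, and *SATB1* at 127 against 97.8 CPM. The higher *SATB1* level was found only in the 106 cells with 1 *FOXP3* UMI, at 158 CPM (126 to 196). In the 56 cells with 2 or more it was at 69.9 CPM (42.7 to 108).

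The opposite signs of *LEF1* and *TCF7* in *FOXP3*+ cells were examined among cells alike in *CCR7* and *GZMB*. Among cells with no *GZMB* and at least 1 *CCR7* UMI, *TCF7* was at 59.8 CPM in 102 *FOXP3*+ cells and 144 CPM in 1796 other cells, a log2 ratio of -1.26 (-1.84 to -0.74). *LEF1* was at 249 against 208 CPM there (0.26, -0.01 to 0.53), and *FOXP1* at 184 against 105 CPM (0.80, 0.47 to 1.11). *SATB1*, *BACH2* and *SOX4* had intervals that include 0 in this comparison. The *TCF7* ratio was between -1.30 and -1.18 when cells with the highest doublet scores, cells with a B cell gene UMI or cells with 6000 UMIs or more were left out. The *FOXP3*+ cells also had less CD8 tag, with 37.0% of them high against 52.0% of the others. B cell genes were at 39.8 CPM in all *FOXP3*+ cells and 77.1 CPM in the others, but more of the *FOXP3*+ cells had a UMI of them, 13.6% against 6.85%.

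The balance of *LEF1* and *TCF7* does not depend on the total of a cell, so it was also given as the share of *LEF1* among UMIs of both. *LEF1* made up 56.1% (54.8 to 57.4) in all CD3E+ cells, and 78.1% (71.9 to 83.5) in *FOXP3*+ cells against 55.3% (53.9 to 56.6) in the rest. Among cells with 0 *GZMB* and 0 *CCR7* UMIs, 42 *FOXP3*+ cells had only 25 *LEF1* and 12 *TCF7* UMIs. There the share was 67.6% (50.2 to 82.0) against 51.6% (49.3 to 54.0) in 2098 others, with intervals that overlap. The share was 49.5% (47.5 to 51.6) at 0 *CCR7* UMIs, 60.8% (58.3 to 63.3) at 1 and 60.1% (57.8 to 62.2) at 2 or more, so it rose with the first *CCR7* UMI and then did not go on rising. It was 54.8% (46.0 to 63.4) in *CXCL13*+ cells and 59.3% (55.4 to 63.1) in *CCR9*+ cells, and 36.5% (31.7 to 41.5) in 1018 cells with 2 or more *GZMK* UMIs. Granzyme K, the product of *GZMK*, is another protease of cytotoxic T cells, and *LEF1* was at 33.9 CPM in these cells and *TCF7* at 59.0 CPM. A low share was not particular to the *GZMK* cells. It was 36.9% (30.0 to 44.2) in cells with 0 *CCR7* and 1 to 4 *GZMB* UMIs. With 0 *CCR7* and 5 or more *GZMB* UMIs it was 41.3% (35.1 to 47.6), and 50.3% (45.7 to 54.9) in all cells with 5 or more. Of the *GZMK* cells 56.6% also had a *GZMB* UMI, against 44.8% of all CD3E+ cells, and the part of *GZMB* in their levels was not tested.

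**Figure D2:**
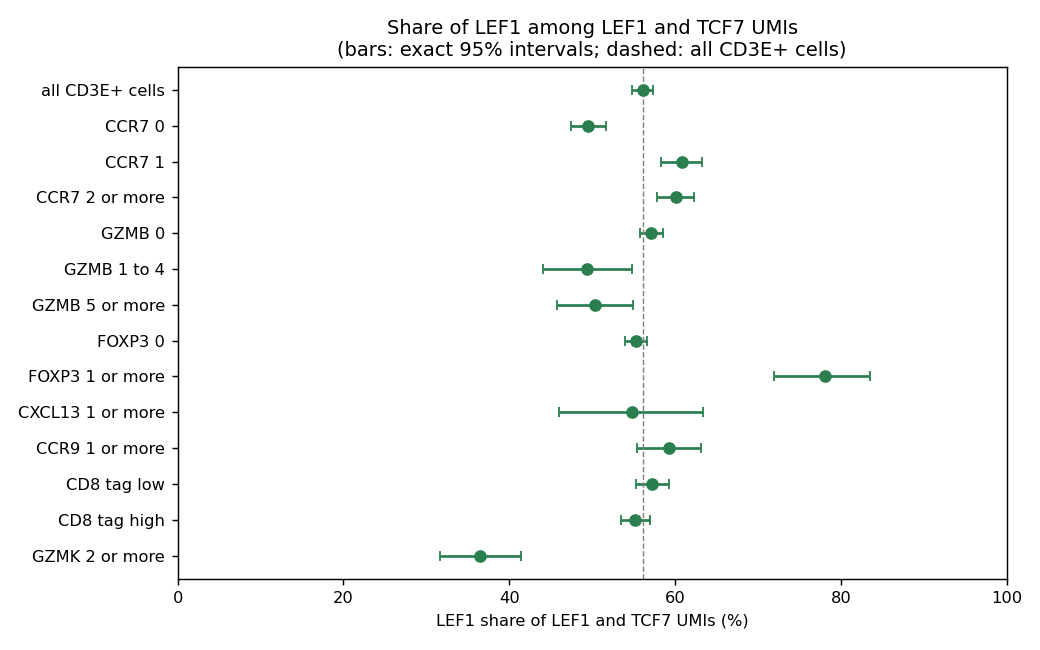
Share of *LEF1* among *LEF1* and *TCF7* UMIs (x axis, percent) in groups of CD3E+ cells (y axis), with exact 95% intervals as bars and all CD3E+ cells (56.1%) as a dashed line. Of the groups shown, *FOXP3*+ cells lie highest at 78.1% and cells with 2 or more *GZMK* UMIs lowest at 36.5%.

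CXCL13 is a chemokine made by follicular helper T cells, which draws B cells. The 73 cells with a *CXCL13* UMI had *LEF1* at 239 CPM (188 to 300) against 105 CPM in the rest, *TCF7* at 197 CPM (151 to 253) against 82.4 CPM, and *SATB1* at 232 CPM (182 to 293) against 97.2 CPM. The log2 ratios were 1.18 (0.83 to 1.51), 1.26 (0.87 to 1.62) and 1.26 (0.90 to 1.60). *FOXP1* was at 74.3 against 81.1 CPM (-0.13, -0.79 to 0.46), and *SOX4* and *BACH2*, with 6 and 3 UMIs, had intervals that include 0. Unlike the *FOXP3*+ cells, these cells had high *TCF7* without high *FOXP1*. B cell genes were at 29.1 CPM in the *CXCL13*+ cells and 76.6 CPM in the rest, with a UMI of them in 8.22% and 6.99% of the cells.

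Within cells with 0 *GZMB* UMIs the log2 ratios were smaller, at 0.58 (0.19 to 0.95) for *LEF1*, 0.91 (0.50 to 1.28) for *TCF7* and 0.73 (0.33 to 1.11) for *SATB1*. Where *CCR7* was also at 0, 26 *CXCL13*+ cells had *LEF1* at 277 against 107 CPM and *TCF7* at 244 against 99.3 CPM, with ratios of 1.37 (0.73 to 1.94) and 1.30 (0.61 to 1.90). With at least 1 *CCR7* UMI the *LEF1* ratio was 0.04 (-0.48 to 0.51) in 37 cells and that of *TCF7* 0.61 (0.08 to 1.09). The *LEF1* levels of *CXCL13*+ cells without and with *CCR7* RNA, 277 CPM (179 to 409) and 216 CPM (151 to 299), had overlapping intervals.

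CCR9 leads T cells to the small intestine, and the 479 cells with its RNA had *LEF1* at 146 against 103 CPM (0.50, 0.34 to 0.65), *TCF7* at 100 against 82.0 CPM (0.29, 0.10 to 0.47) and *SATB1* at 138 against 94.8 CPM (0.54, 0.38 to 0.70). Within cells with 0 *GZMB* UMIs these ratios were -0.09 (-0.26 to 0.07), -0.24 (-0.45 to -0.04) and 0.06 (-0.12 to 0.23), so the higher levels were not found among cells of like *GZMB*. *SOX4* was lower in *CCR9*+ cells both among all CD3E+ cells, at 3.76 against 8.78 CPM (-1.22, -2.30 to -0.32), and within cells with 0 *GZMB* UMIs, at 4.57 against 13.5 CPM (-1.56, -2.64 to -0.66). Among cells with neither *GZMB* nor *CCR7*, *SOX4* had 0 UMIs in 243 *CCR9*+ cells and 39 in 1897 others, which is at least 2.09-fold lower with 3 counts taken as the limit over the group. *CCR9*+ cells were deeper, with a median of 4798 UMIs against 3591.5, and their B cell gene level was 153 against 68.7 CPM. A high CD8 tag was found in 65.6% of them against 50.7% of the others, and in 63.2% against 49.7% within cells with 0 *GZMB* UMIs. *SOX4* was also lower in cells with a high CD8 tag, as given below, and the part of the tag in the *CCR9* difference was not tested.

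**Figure D3:**
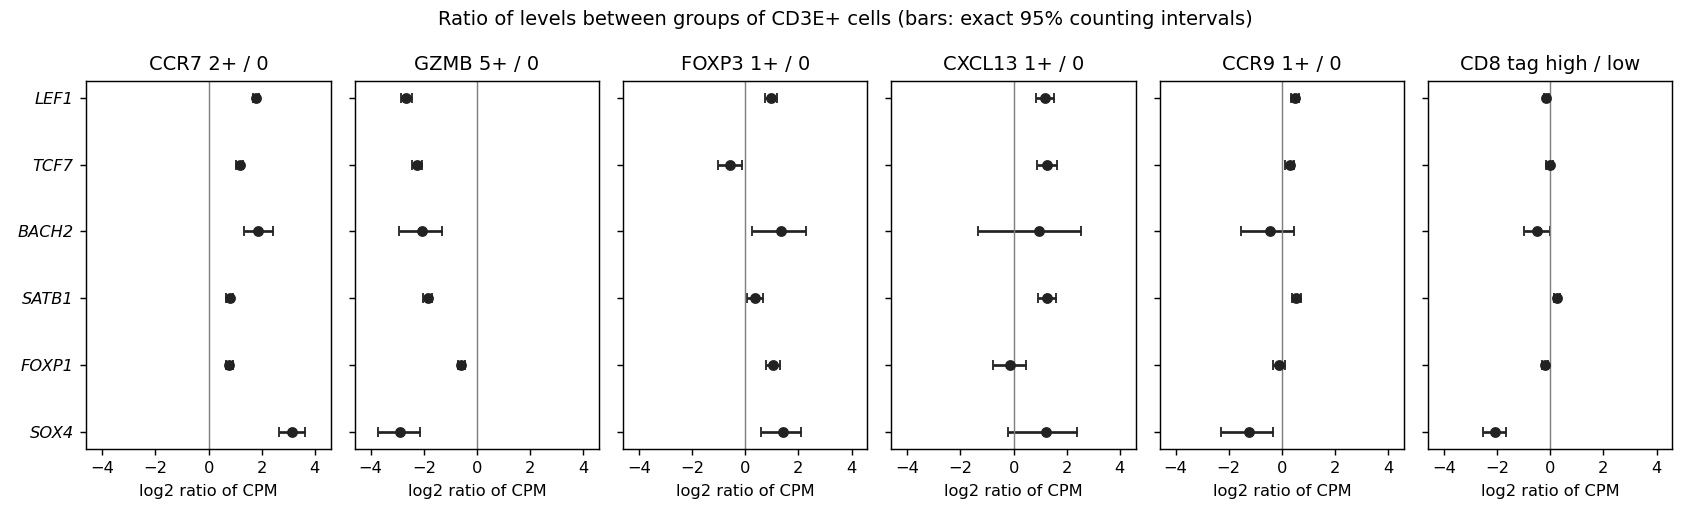
Log2 ratio of CPM (x axis, 0 marked by a line) of each factor (y axis) in 6 contrasts of CD3E+ cells, with exact 95% counting intervals as bars. *TCF7* lies left of 0 at -0.56 by *FOXP3* while *LEF1* lies right of it at 0.97, and *SOX4* has the largest ratio of the 6 in every panel but that of *CXCL13*, where its interval includes 0.

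The cells were sorted for both CD4 and CD8, but the CD8 tag varied widely among those with CD4 tag, and 3592 cells were above and 3270 at or below the level of B gene cells. *SOX4* was the factor that differed by far the most. It stood at 3.62 CPM (2.77 to 4.65) in CD8 tag high and 15.5 CPM (13.3 to 17.8) in CD8 tag low cells, a log2 ratio of -2.09 (-2.54 to -1.67). The ratio was -0.51 (-1.0 to -0.02) for *BACH2*, -0.20 (-0.32 to -0.09) for *FOXP1*, -0.15 (-0.25 to -0.04) for *LEF1*, -0.03 (-0.14 to 0.09) for *TCF7* and 0.25 (0.14 to 0.36) for *SATB1*. None of the 6 passed a log2 ratio of 1 with 10 CPM added, and of 9940 genes 0.161% were higher and 0.0302% lower by that much. B cell genes were at 109 CPM in CD8 tag high and 22.2 CPM in CD8 tag low cells, and their part was not tested.

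Over quartiles of the CD8 tag, *SOX4* was at 25.5 CPM (21.7 to 29.8) in the lowest, then 5.49, 3.34 and 3.20 CPM (2.16 to 4.57). Nearly all of the difference therefore lay between the lowest quartile and the rest. The median CD8 tag was 137.5 UMIs in the lowest quartile and 139.5 in B gene cells. The tag thus does not show that the cells of that quartile carried CD8. *LEF1* was at 150 CPM in the lowest quartile and 78.1, 100 and 108 CPM in the others, so it was neither steadily higher nor lower with the tag. A *GZMB* UMI was found in 35.3% of the lowest quartile and 51.0%, 49.0% and 39.2% of the others. The highest quartile was deeper than the lowest, with a median of 4695 against 3450 UMIs, and had B cell genes at 169 against 18.9 CPM. The part of these differences was not tested.

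The CD8 differences of *SOX4* and *LEF1* were larger among cells with *CCR7* and without *GZMB* RNA, which may be naive or central memory cells. Within cells with 0 *GZMB* and 2 or more *CCR7* UMIs, *SOX4* had 15 UMIs in 520 CD8 tag high cells (5.16 CPM) and 101 in 449 CD8 tag low cells (54.6 CPM), a log2 ratio of -3.40 (-4.29 to -2.61). *LEF1* was at 178 against 259 CPM (-0.54, -0.72 to -0.36), *TCF7* at 127 against 164 CPM (-0.37, -0.59 to -0.14), *FOXP1* at 98.8 against 137 CPM (-0.47, -0.72 to -0.22) and *BACH2* at 7.57 against 15.1 CPM (-1.0, -1.88 to -0.14). *SATB1* alone was not lower, at 146 against 124 CPM. The CD8 tag high cells were deeper, with a median of 4929 against 3926 UMIs, and had more B cell gene UMIs, 153 against 26.5 CPM. Among cells under 6000 UMIs the *SOX4* ratio was -4.05 (-5.53 to -2.87), and without cells with a B cell gene UMI it was -3.38, while that of *TCF7* came to -0.09 (-0.35 to 0.18) and -0.24 (-0.48 to 0.00) and that of *BACH2* to -0.65 (-1.66 to 0.33) and -0.64 (-1.59 to 0.28).

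In the cells with 5 or more *GZMB* UMIs, *LEF1*, *TCF7* and *SOX4* were higher, not lower, in CD8 tag high cells. *LEF1* was at 39.5 CPM in 1215 CD8 tag high cells and 6.70 CPM in 1001 CD8 tag low cells, a log2 ratio of 2.56 (1.94 to 3.25), and *TCF7* at 34.6 against 12.2 CPM (1.5, 1.01 to 2.02). *SATB1* was higher there too, as among all CD3E+ cells, at 47.6 against 22.7 CPM (1.07, 0.70 to 1.45). *SOX4* had 15 UMIs against 1, a ratio of 3.24 (0.54 to 8.63), *FOXP1* was at 61.8 against 61.5 CPM (0.01, -0.24 to 0.26), and *BACH2* had 10 against 3 UMIs (1.07, -0.89 to 3.57). In the CD8 tag high cells 15.6% had one of the highest doublet scores, against 3.90%, and the B cell genes were at 90.7 against 9.03 CPM. Of the 242 *LEF1* UMIs in all cells with 5 or more *GZMB* UMIs, 42 came from 70 cells with 1 *CCR7* UMI and 96 from 79 cells with 2 or more. These 79 cells also held 11 of the 16 *SOX4* UMIs. A high CD8 tag was found in 82.9% of the 70 and 91.1% of the 79 cells, and their part in the CD8 difference was not tested. Without the cells of highest doublet score the ratio was 1.90 (0.95 to 2.99) for *LEF1*, 0.93 (0.32 to 1.57) for *TCF7* and 0.74 (0.30 to 1.20) for *SATB1*, and among cells under 6000 UMIs it was 1.80 (0.81 to 2.91), 0.59 (-0.05 to 1.24) and 0.02 (-0.48 to 0.51). *SOX4* had 3 against 1 UMIs (1.25, -2.39 to 6.96) in the former setting and 6 against 0 in the latter. In the former *LEF1* was at 12.8 against 3.41 CPM. The *LEF1* levels of CD8 tag low cells, 6.70 and 3.41 CPM, lay under the 7.56 CPM that the B gene cells allow.

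To set the factors side by side without counting a cell more than once, CD3E+ cells were split into 11 groups, first by *GZMB*, then by *FOXP3*, *CXCL13* and *CCR9*, and the rest by *CCR7* and CD8 tag. Unlike the CD8 tag groups above, these also hold cells with a low CD4 tag. With 2 or more *CCR7* UMIs and low CD8 tag there were 395 cells, of which 378 had a CD4 tag above its limit. *LEF1* was highest at 263 CPM (236 to 292) in cells with 1 *CCR7* UMI and low CD8 tag, but neither the 257 CPM of cells with 2 or more and low CD8 tag nor the 252 CPM (193 to 324) of *CXCL13*+ cells lay outside its interval. *TCF7* was highest in *CXCL13*+ cells, at 235 CPM (178 to 305), and next in cells with 2 or more *CCR7* UMIs and low CD8 tag, at 174 CPM (154 to 196), with intervals that overlap. *FOXP1* was highest in *FOXP3*+ cells, at 169 CPM (139 to 202), with 138 CPM (120 to 158) next, also overlapping. *SOX4* stood at 58.0 CPM (46.8 to 71.1) in cells with 2 or more *CCR7* UMIs and low CD8 tag, above the 30.0 CPM (21.3 to 41.0) of those with 1 *CCR7* UMI, and at 3.80 CPM (1.74 to 7.21) in cells with 2 or more and high CD8 tag.

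**Figure D4:**
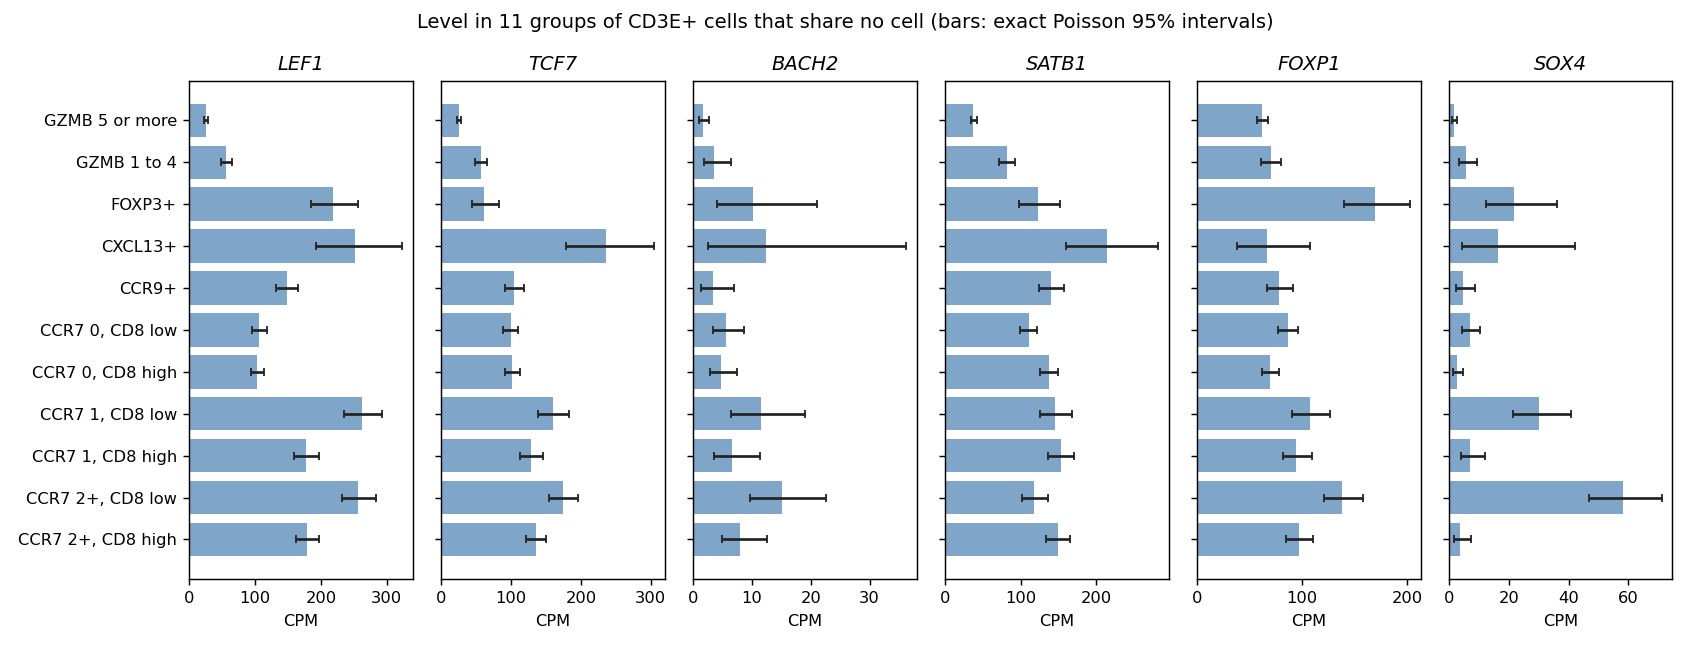
Level (x axis, CPM, from 0 and on a scale of its own for each gene) in 11 groups of CD3E+ cells that share no cell (y axis), with exact Poisson 95% intervals as bars. *SOX4* reaches 58.0 CPM in cells with 2 or more *CCR7* UMIs and low CD8 tag and 3.80 CPM in those with high CD8 tag, and *FOXP1* is highest in *FOXP3*+ cells.

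Over these 11 groups of 1 library, the Pearson correlation of log2(CPM + 10) was 0.89 for *TCF7* with *SATB1*, 0.88 for *BACH2* with *SOX4*, 0.87 for *LEF1* with *BACH2* and with *SATB1*, and 0.85 for *LEF1* with *TCF7*. It was 0.19 for *TCF7* with *FOXP1* and 0.24 for *SATB1* with *FOXP1*, so *FOXP1* was the member least like these 2. Among 8532 genes with a symbol and at least 100 UMIs, the 5 most like *LEF1* were *ADD3* (0.99), *ACTN1*, *IL17RA*, *PECAM1* and *CD7*, of which *PECAM1* codes for CD31 and *ACTN1* for an actin crosslinker. Those of *TCF7* were *APP* (0.98), *MAML2*, *TMEM123*, *PIK3CD* and *GCC2*, and those of *SATB1* were *LTB* (0.97), which codes for lymphotoxin beta, *DGKA*, *MBNL1*, *TNFRSF25* and *RAPGEF6*. For *FOXP1* they were *CA6* (0.96), *IPCEF1*, *TGIF1*, *PDK1* and *RGS10*, for *BACH2* *NSA2* (0.94), *HMGN3*, *MAGEH1*, *IL6ST* and *RFLNB*, and for *SOX4* *XPO4* (0.91), *LTBP3*, *RPIA*, *RFLNB* and *BACH2*. The groups were made from marker genes and the CD8 tag, so genes that follow those markers correlate. *BACH2* had between 3 and 24 UMIs in a group. The correlations and ranks rest on 11 points, are a description only and were not tested.

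Other marker genes split the factors further. *SATB1* was higher in 557 cells with *CCR6*, a receptor of Th17 cells, at 162 against 91.1 CPM (0.83, 0.69 to 0.97), and in 220 cells with *ZBTB16*, which codes for the innate-like factor PLZF, at 155 against 96.3 CPM (0.69, 0.46 to 0.91). *LEF1* was at 104 against 107 CPM in the *ZBTB16*+ cells (-0.04, -0.32 to 0.22), and *FOXP1* was lower in *CCR6*+ cells at 65.3 against 82.8 CPM. *LEF1* was higher in 176 cells with *CCR4*, a receptor of Th2 and regulatory cells, at 191 against 104 CPM, and lower in 1100 cells with *CXCR3*, a receptor of Th1 cells, at 70.5 against 114 CPM. *SOX4* was nearly absent from the *CXCR3*+ cells, with 4 UMIs against 247 in the other 6211 cells (-3.70, -5.58 to -2.32), and had 5 UMIs in the *CCR6*+ cells. All 6 were lower in 205 cells with *MKI67*, a gene of dividing cells, with log2 ratios from -0.65 to -1.81, although the interval of *BACH2* includes 0. A *GZMB* UMI was found in 64.9% of the *MKI67*+ cells, 46.5% of the *CXCR3*+, 32.3% of the *ZBTB16*+, 13.5% of the *CCR6*+ and 10.8% of the *CCR4*+ cells, and its part in these differences was not tested.

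Few cells held several of the factors at once at this depth. After thinning, 24.2% (21.6 to 26.9) of 1038 *LEF1*+ cells also had a *TCF7* UMI, against 12.3% (11.5 to 13.2) of *LEF1*- cells, and the odds ratio pooled over 10 depth bins was 2.17. *SOX4* was tied most closely to *LEF1*, with *LEF1* in 46.5% (36.4 to 56.8) of 99 *SOX4*+ cells and 14.5% of the others, an odds ratio of 5.12. The smallest odds ratios were those of *FOXP1* with *TCF7* and with *SATB1*, at 1.32 and 1.33. Of the 15 pairs, none had an odds ratio under 1 in all CD3E+ cells.

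Within cells with no *GZMB* and at least 1 *CCR7* UMI, the *LEF1* and *TCF7* odds ratio fell to 1.21, with *TCF7* in 27.7% (24.1 to 31.5) of *LEF1*+ and 23.8% (21.5 to 26.3) of *LEF1*- cells. Among these cells, finding a *LEF1* UMI thus said little about finding a *TCF7* UMI in the same thinned cell. Cells without a UMI at this depth may still hold RNA of the gene, so this odds ratio cannot show how closely *LEF1* and *TCF7* are tied within a cell. The *FOXP3*+ cells, in which *TCF7* was lower, were also among these cells, and their part was not tested. *LEF1* in *SOX4*+ cells remained more frequent there, at 52.4% (39.4 to 65.1) of 63 cells against 31.7%, an odds ratio of 2.0, and *SATB1* was found in 28.2% (24.6 to 32.0) of *LEF1*+ against 21.4% (19.1 to 23.8) of *LEF1*- cells.

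Of the thinned cells, none of the 6 factors was found in 79.8% (78.2 to 81.4) of those with 5 or more *GZMB* UMIs, 65.9% (64.6 to 67.3) of those with 0 *CCR7* UMIs and 34.0% (31.2 to 36.9) of those with 2 or more. At least 3 of the 6 were found in 7.27% (5.81 to 8.97) of cells with 2 or more *CCR7* UMIs, 1.36% (1.05 to 1.73) of those with 0, 0.170% (0.046 to 0.435) of those with 5 or more *GZMB* UMIs and 14.7% (7.28 to 25.4) of 68 *CXCL13*+ cells. Without thinning, 32 cells held 5 or more of the factors and 1 cell held all 6.

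**Figure D5:**
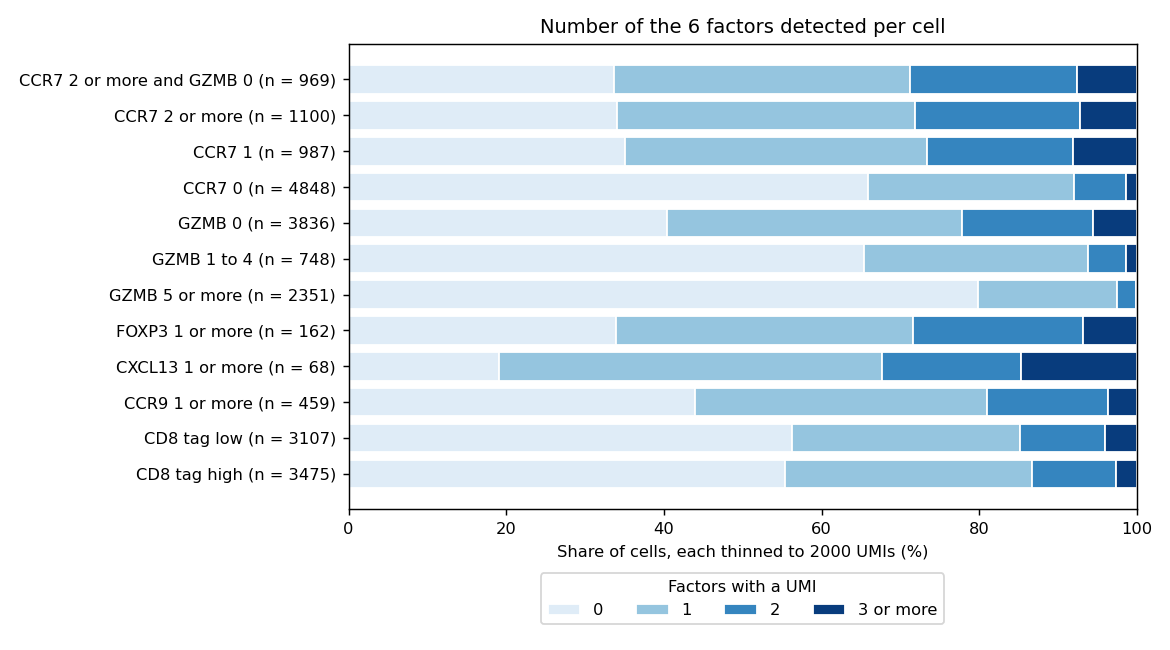
Share of CD3E+ cells, each thinned to 2000 UMIs (x axis, percent), by the number of the 6 factors with a UMI (shade), in groups of cells (y axis, with the number of cells). Cells without any of the 6 make up 79.8% at 5 or more *GZMB* UMIs and 34.0% at 2 or more *CCR7* UMIs.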

How the data were processed

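The authors mapped the reads with Cell Ranger 3.1.0 and STAR 2.5.1b to the Mmul_10 genome and deposited UMI counts that were not normalized, for each gene and each antibody tag in every barcode. The submitters' notes also name Seurat 3.1.3. The study's filters were applied (200 to 4000 genes, at most 20% mitochondrial UMIs, genes in at least 3 cells), counting 13 named mitochondrial genes and 2 features without a symbol listed among them. The 6 members and all gene lists were chosen with earlier results of these data known.

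Counts were summed over cells of a group. Intervals are exact (95%, Poisson for CPM, Clopper-Pearson for shares and for the binomial split behind ratios) and cover counting error only. With 1 animal no test was made. The limit of a count of 0 is 3 counts. Genes were named by rule: the members, the grouping genes, from each list at most 2 of the highest and 2 of the lowest ratios, and the 5 genes most like each member. Tag limits (191 UMIs for CD4, 330.5 for CD8) are the 90th percentile of B gene cells, which have at least 3 UMIs of 7 B cell genes. Scrublet in scanpy 1.11.5, at an expected 6%, marked 0 cells as doublets and so did not work here, no cell was removed, and an alternative left out the 489 highest scores. Protein sequences were not used here, and coding bases were compared in their place. Simulated counts for 9923 genes, made for the *GZMB* contrast, gave intervals that held the true ratio for 95.2% of unchanged genes. The counts were drawn as Poisson counts of whole groups, as the intervals assume, so this checks the formula only. Whether the intervals are wide enough for UMIs that gather in single cells was not tested. A 4-fold rise passed the log2 ratio of 1 with 10 CPM added in 78% of 50 genes and a fall of that size in 66% of 50, but a 2-fold change in 0% and 2%, so the call misses most 2-fold changes. Alternatives changed the filters, total, thinning, groups and cells left out. Python 3.11.15, numpy 2.4.6, scipy 1.17.1 and pandas 2.3.3 were used.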

Additional observations from a re-analysis of the deposited data

Results flagged for a closer look

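The CD8 tag difference had opposite signs in cells without and with *GZMB* RNA for 3 of the 6 factors, with both intervals off 0. The log2 ratio of CD8 tag high to low was -0.29 at 0 *GZMB* UMIs and 2.56 at 5 or more for *LEF1*, -0.15 and 1.5 for *TCF7*, and -2.50 and 3.24 for *SOX4*, the last from 15 UMIs against 1. The cells are of 1 animal, and the difference between the ratios was not tested. Without the cells of highest doublet score the ratios at 5 or more *GZMB* UMIs were 1.90 for *LEF1*, 0.93 for *TCF7* and 1.25 (-2.39 to 6.96) for *SOX4*. Among cells under 6000 UMIs they were 1.80 for *LEF1* and 0.59 (-0.05 to 1.24) for *TCF7*, and *SOX4* had 6 UMIs against 0. Of the 242 *LEF1* UMIs in all cells with 5 or more *GZMB* UMIs, 96 came from 79 cells with 2 or more *CCR7* UMIs. Of these 79 cells 91.1% had a high CD8 tag, and their part was not tested.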

How the results depend on the processing

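Of 340 values recomputed under other settings, 289 stayed within the interval of the value reported (for counts of list genes, within 1.5 times), 47 moved out of it and 4 changed sign.

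All values here are log2 ratios unless said otherwise. By *CCR7*, the mean over cells gave 2.06 for *LEF1*, 1.33 for *TCF7* and 0.96 for *SATB1*, thinning gave 2.09, 1.33 and 1.01, and leaving ribosomal and mitochondrial genes out of the total gave 1.94, 1.32 and 0.94, with 0.93 for *FOXP1*. By *GZMB*, the mean over cells gave -3.50 for *LEF1*, -2.76 for *TCF7*, -2.30 for *SATB1*, -0.77 for *FOXP1* and -3.89 for *SOX4*. Thinning gave -3.41, -2.78 and -2.16 for the first 3 and -3.89 for *SOX4*, and the smaller total gave -2.86, -2.46 and -2.05, with -0.79 for *FOXP1*. Without the highest doublet scores the *GZMB* ratios were -4.29 for *LEF1*, -3.02 for *TCF7*, -3.08 for *BACH2*, -2.34 for *SATB1* and -4.64 for *SOX4*. Without cells with a B cell gene UMI *LEF1* by *GZMB* was -2.85, and at 10 or more *GZMB* UMIs *TCF7* was -2.54 and *SATB1* -2.04.

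*LEF1* by *FOXP3* was 1.24 as a mean over cells and 1.32 thinned. Thinning gave 1.57 for *LEF1* and 1.62 for *SATB1* by *CXCL13*, and the mean over cells gave 0.70 for *LEF1* by *CCR9*. Within 0 *GZMB* UMIs, *LEF1* was 0.47 by *FOXP3*, 0.58 by *CXCL13* and -0.29 by CD8 tag, *SATB1* 0.73 by *CXCL13* and 0.061 by *CCR9*, and *TCF7* -0.15 by CD8 tag. The sign changed there for *SATB1* by *FOXP3* (-0.15) and for *LEF1* (-0.091) and *TCF7* (-0.24) by *CCR9*. Quartiles of the CD8 share of both tags gave -0.65 for *LEF1*, -0.53 for *TCF7*, -0.46 for *FOXP1* and -3.07 for *SOX4*, and changed the sign of *SATB1* (-0.093). With all UMIs, *TCF7* was found in 41.5% of *LEF1*+ cells. The cause of these shifts was not tested.

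The settings without the highest doublet scores, without B cell gene UMIs and under 6000 UMIs within *GZMB* and *CCR7* groups were chosen after seeing the data. One animal, 152 *BACH2* and 251 *SOX4* UMIs limit the precision, and no paired analysis was possible because the labels give no replicates.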
